A study of Mus musculus with 6 samples.

Results

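The 10 genes described here are delayed activity-response genes and the neurotrophin gene Bdnf with its receptor: Bdnf, Ntrk2, Nptx1, Nptx2, Vgf, Nrn1, Homer1, Tiparp, Ell2 and Inhba. They were chosen by symbol, with earlier results of these data known. All 10 were found among the 19954 gene symbols of a single-nucleus RNA-seq table of the mouse spinal cord. TESS mice (3 samples) were on a treadmill for 30 min with TESS, a targeted electrical stimulation of the spinal cord. CON mice (3 samples, labelled paralyzed) spent the same time there without it. All mice were wild-type C57BL/6 with a severe thoracic contusion and paralysed legs. By the series text, walking under TESS took place in the presence of agonists of 2 receptors, 5-HT1a for serotonin and D1 for dopamine, and whether CON mice received these agonists is not clear from it. The labelled source is lumbar cord, although the protocol for extraction speaks of a thoracic injury site.

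When a neuron fires, calcium entry switches on a first set of genes within minutes, mostly transcription factors such as Fos and Egr1. A later set follows, many of whose products act at synapses or outside the cell. Bdnf encodes brain-derived neurotrophic factor, a secreted protein that signals through the receptor TrkB, the product of Ntrk2. Nptx1 and Nptx2 encode neuronal pentraxins, which gather AMPA-type glutamate receptors at synapses. Vgf encodes a secreted precursor of several neuropeptides, Nrn1 encodes neuritin, a membrane-anchored protein that promotes neurite growth, and Homer1 encodes a scaffold of the postsynaptic density. Inhba encodes a subunit of activin, a signal of the TGF-beta family. Tiparp encodes an ADP-ribosyltransferase that is induced by the aryl hydrocarbon receptor and represses it. Ell2 encodes a factor that speeds elongation by RNA polymerase II. Homer1 gives a short activity-induced form and long forms, and Ntrk2 gives a full-length and a truncated receptor. The forms of each gene share its count here and cannot be told apart.

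The table held 18514 nuclei, of which 6035 were neurons in 38 subtypes of the authors' annotation, while the series text states 20484 nuclei and 6171 neurons. The depth was lower in TESS samples, with 984411 to 1805760 unique molecular identifiers (UMIs, 1 per captured RNA molecule) in their neurons, against 2139502 to 2602108 in neurons of CON samples. TESS 1, CON 1 and CON 2 carry the same batch number, and the other 3 samples have a batch number each. Of the cell barcodes, 205 occurred in more than 1 library. Whether samples came from separate animals is not stated in the labels, and p-values therefore measure only the spread between these samples. All 5 neuron markers (Rbfox3, Snap25, Syt1, Snhg11 and Nefl) were detected in the nuclei annotated as neurons. Their sums overlapped between the groups, as did Syt1, Snhg11 and Nefl singly, and Snhg11 was the largest part, averaging 5811 CPM. Rbfox3 was higher in every TESS sample (350 to 422 CPM) than in every CON sample (275.5 to 327 CPM). Snap25 was too, with 997 to 1118 CPM in TESS samples and 797 to 959 CPM in CON samples, and the part of both in the results was not tested. The 5 oligodendrocyte precursor markers summed to 523 to 563 CPM (counts scaled to the same total of UMIs per sample) in neurons of TESS samples and 388 to 430.5 CPM in neurons of CON samples, without overlap, and their part in the results was not tested.

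The 3 genes with the largest log2 fold changes above 0 in neurons were Tiparp, Ell2 and Homer1. Ell2 lies on chromosome 13 (75706757 to 75772364, plus strand), Homer1 on chromosome 13 (93299635 to 93405129, plus strand) and Tiparp on chromosome 3 (65528410 to 65555518, plus strand), in GENCODE coordinates of GRCm38. For 7 of the 10 genes another annotated gene overlaps the gene body, so the origin of some reads is uncertain, while Nptx1, Nptx2 and Vgf overlap none. RefSeq promoters (GRCm38.p6) matched 6 of the 10 genes, namely Bdnf, Ntrk2, Homer1, Tiparp, Ell2 and Inhba. The 250 bases before 1 annotated start are shown for the 3 genes above and for the Bdnf start that has a core of the cyclic AMP response element (CRE), because CRE-binding factors are a known route of activity-dependent transcription. Capitals mark the CRE core TGACG, the full CRE TGACGTCA, which contains the core on both strands, and the core GCGTG bound by the aryl hydrocarbon receptor, on either strand.
Ell2, chr13:75707234-75707483, plus strand: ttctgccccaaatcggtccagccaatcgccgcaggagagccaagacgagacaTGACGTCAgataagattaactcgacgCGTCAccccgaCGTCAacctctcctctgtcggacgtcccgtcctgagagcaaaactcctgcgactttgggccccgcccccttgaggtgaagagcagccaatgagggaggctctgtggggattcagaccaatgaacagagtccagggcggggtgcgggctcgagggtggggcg
Homer1, chr13:93303507-93303756, plus strand: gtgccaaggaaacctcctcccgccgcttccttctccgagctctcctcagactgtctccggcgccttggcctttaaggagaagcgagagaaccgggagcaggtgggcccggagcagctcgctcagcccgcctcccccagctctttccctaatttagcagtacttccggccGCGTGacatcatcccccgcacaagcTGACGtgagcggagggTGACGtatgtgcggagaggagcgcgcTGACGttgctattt
Tiparp, chr3:65528197-65528446, plus strand: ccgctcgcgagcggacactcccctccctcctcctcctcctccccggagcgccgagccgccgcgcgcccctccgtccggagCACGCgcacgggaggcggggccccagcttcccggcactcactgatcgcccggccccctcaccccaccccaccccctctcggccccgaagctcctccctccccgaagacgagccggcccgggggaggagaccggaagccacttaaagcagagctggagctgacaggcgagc
Bdnf, chr2:109692186-109692435, plus strand: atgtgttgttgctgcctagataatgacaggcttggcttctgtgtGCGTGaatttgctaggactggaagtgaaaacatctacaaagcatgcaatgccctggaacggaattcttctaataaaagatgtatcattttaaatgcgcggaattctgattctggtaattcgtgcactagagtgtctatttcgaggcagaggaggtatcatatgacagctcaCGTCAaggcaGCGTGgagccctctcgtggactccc

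The Ell2 promoter held 1 full CRE and 4 CRE cores in all, the Homer1 promoter shown held 3 cores, and the Bdnf promoter shown held 1. The Tiparp promoter held no CRE core and 1 GCGTG on the minus strand. Among all 32851 RefSeq promoters, of 300 bases each, 1.79% held TGACGTCA, 20.8% held TGACG and 32.4% held GCGTG. A match describes the letters in this window and shows no binding. Of the 7 Bdnf promoters, the other 6 held no CRE core. The second Homer1 promoter, and those of Ntrk2 and Inhba, held none either.

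The difference between TESS and CON was asked first in all neurons summed per sample. Tiparp and Ell2 rose in TESS neurons, each with a log2 fold change of 1.03. Homer1 had higher values in every TESS sample and did not pass the test, and 0 of the 10 genes fell. These 2 calls among 10 genes stand beside 122 called of 11686 genes tested in neurons, or 1.04%, with 0.274% called in the higher direction. Because the genes were chosen with earlier results known, this comparison is no independent support. The test was edgeR's quasi-likelihood F test, with Benjamini-Hochberg adjusted p over all genes tested and a call at an adjusted p under 0.05.

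Ell2 had 60.4, 100.4 and 67.05 CPM in neurons of TESS 1, TESS 2 and TESS 3, against 39.0, 28.4 and 44.4 CPM in CON 1, CON 2 and CON 3. Each TESS sample lay above every CON sample, and TESS 2 was the highest. The log2 fold change of TESS over CON was 1.03 ± 0.20 (SE, n = 3 per group, edgeR adjusted p = 0.0160). Tiparp had 36, 81.0 and 44.7 CPM in neurons of TESS 1, TESS 2 and TESS 3, against 25.1, 24.98 and 29.0 CPM in CON 1, CON 2 and CON 3. Again the groups did not overlap, and TESS 2 stood far above the other TESS samples. Tiparp had a log2 fold change of 1.03 ± 0.24 (SE, n = 3 per group, edgeR adjusted p = 0.0342).

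Homer1 had 85.3, 174 and 89.4 CPM in neurons of TESS 1, TESS 2 and TESS 3, against 69.9, 67.6 and 80.4 CPM in CON 1, CON 2 and CON 3. The groups did not overlap, and the 2 lower TESS samples were close to CON 3. Its log2 fold change was 0.68 ± 0.21 (SE, n = 3 per group, edgeR adjusted p = 0.111). TESS samples lay above all CON samples for 3 of the 10 genes, beside 10.9% of all genes tested in neurons.

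TESS 2 carried much of these differences. Without TESS 2 the log2 fold change in neurons was 0.73 for Ell2 (edgeR adjusted p = 0.0711), 0.55 for Tiparp (edgeR adjusted p = 0.225) and 0.22 for Homer1 (edgeR adjusted p = 0.545). Without TESS 1, Homer1 was called as well (0.89, edgeR adjusted p = 0.0408). The call of Ell2 was also lost without CON 2 (edgeR adjusted p = 0.0695). That of Tiparp was lost without TESS 3, CON 1, CON 2 or CON 3 as well, with edgeR adjusted p = 0.0728, 0.0949, 0.0925 and 0.111 in turn and log2 fold changes of 0.97 to 1.14. Within the shared batch, TESS 1 against CON 1 and CON 2, the log2 fold change was 0.81 for Ell2, 0.49 for Tiparp and 0.28 for Homer1, and 0 of the 10 genes were called. TESS 1 is the only TESS sample in that batch, and a fit with batch as a term rests on the same 3 samples, because each other sample is alone in its batch. With 1 TESS sample in the contrast, the lack of calls says nothing of stability.

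The summed level of 8 early genes (Fos, Fosb, Junb, Egr1, Arc, Npas4, Nr4a1 and Nr4a3) was 71.4, 169 and 75.2 CPM in neurons of TESS 1, TESS 2 and TESS 3, against 32.4, 40.0 and 33.2 CPM in CON 1, CON 2 and CON 3. TESS 2 was the highest for these genes too, and the part of this in the changes of Tiparp, Ell2 and Homer1 was not tested. When each subtype gave the same number of nuclei to all samples, the log2 fold change was 0.90 for Ell2, 1.16 for Tiparp and 0.85 for Homer1. All 3 were called there, with edgeR adjusted p = 0.0336 for Ell2, 0.0308 for Tiparp and 0.0356 for Homer1. Homer1 was also called with no filter on low counts (0.65, edgeR adjusted p = 0.00340).

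**Figure D1:**
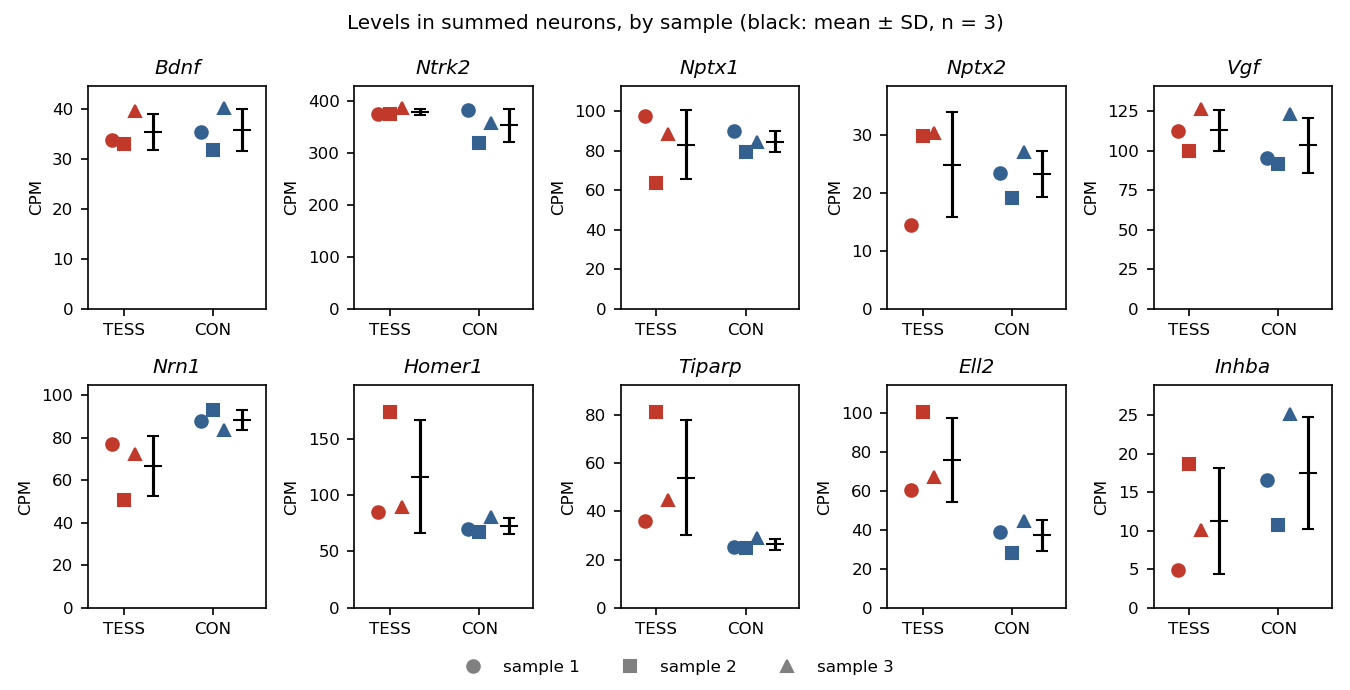
Level of each of the 10 genes in summed neurons, in CPM on the y axis, with TESS samples in red left of CON samples in blue, 1 symbol per sample number and the mean with SD (n = 3) in black. Ell2, Tiparp and Homer1 were higher in every TESS sample, with TESS 2 highest, while Nrn1 was lower in every TESS sample.

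Nrn1 had the clearest difference in the other direction. Its level was 77.0, 50.5 and 72.1 CPM in neurons of TESS 1, TESS 2 and TESS 3, against 88.0, 93.0 and 83.7 CPM in CON 1, CON 2 and CON 3. The groups did not overlap, as for 8.61% of all genes tested in neurons in that direction. The log2 fold change of -0.44 ± 0.16 (SE, n = 3 per group, edgeR adjusted p = 0.190) did not pass, and without TESS 2 it was -0.28. Inhba, the sparsest of the 10 with 174 UMIs in neurons, had 4.98, 18.7 and 10.2 CPM in TESS 1, TESS 2 and TESS 3, against 16.6, 10.8 and 25.2 CPM in CON 1, CON 2 and CON 3. The groups overlapped. Inhba had a log2 fold change of -0.63 ± 0.37 (SE, n = 3 per group, edgeR adjusted p = 0.442), which was -1.35 without TESS 2 (edgeR adjusted p = 0.133).

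For Bdnf and its receptor gene no difference between the groups was detectable in neurons at this depth. Bdnf had 33.8, 33.04 and 39.6 CPM in TESS 1, TESS 2 and TESS 3, against 35.5, 31.9 and 40.2 CPM in CON 1, CON 2 and CON 3. The ranges of the groups were nearly the same. Bdnf had a log2 fold change of -0.05 with a 95% interval of -0.43 to 0.33 (edgeR adjusted p = 0.933). Ntrk2 averaged 378.5 ± 6.49 CPM in TESS neurons and 352.5 ± 31.5 CPM in CON neurons (SD, n = 3 each), a log2 fold change of 0.08 with an interval of -0.15 to 0.31.

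The genes of secreted synaptic proteins were likewise not called in neurons. Vgf averaged 113 ± 13.1 CPM in TESS neurons and 103 ± 17.4 CPM in CON neurons (SD, n = 3 each), a log2 fold change of 0.10 with an interval of -0.21 to 0.40. Nptx1 averaged 83.1 ± 17.5 CPM in TESS neurons and 84.6 ± 5.39 CPM in CON neurons (SD, n = 3 each), a log2 fold change of -0.05 with an interval of -0.37 to 0.27. Nptx2 had 14.4, 29.9 and 30.5 CPM in TESS 1, TESS 2 and TESS 3, against 23.55, 19.2 and 27.1 CPM in CON 1, CON 2 and CON 3. TESS 1 was the lowest of the 6 samples and the other TESS samples were the highest. For Nptx2 the log2 fold change was 0.04 with an interval of -0.48 to 0.57, and within the shared batch it was -0.60.

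Excitatory and inhibitory neurons were then compared. Subtypes were assigned by their summed transmitter genes, which gave 20 excitatory subtypes with 3086 nuclei and 17 inhibitory subtypes with 2880 nuclei. Ell2 was called in both classes, and 0 of the other 9 genes were called in either. In excitatory neurons Ell2 averaged 66.5 ± 19.1 CPM in TESS samples and 34.2 ± 8.86 CPM in CON samples (SD, n = 3 each), a log2 fold change of 0.98 ± 0.24 (edgeR adjusted p = 0.0346). In inhibitory neurons it averaged 76.5 ± 18.8 CPM in TESS samples and 37.1 ± 6.04 CPM in CON samples (SD, n = 3 each), a log2 fold change of 1.02 ± 0.21 (edgeR adjusted p = 0.0315). Of all genes tested in excitatory neurons 0.94% were called, 0.232% higher and 0.708% lower, and of those in inhibitory neurons 0.229% were called, with 0.0697% in the higher direction. In excitatory neurons the 5 microglia markers summed to 79.95 to 114 CPM in TESS samples and 125 to 143 CPM in CON samples, and the 5 blood markers to 68.7 to 116 CPM in TESS samples and 31.8 to 64.05 CPM in CON samples. Both lists, like the precursor markers above, did not overlap between the groups there, and their part in the change of Ell2 was not tested.

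Without TESS 2 Ell2 was at 0.69 in excitatory neurons (edgeR adjusted p = 0.274) and 0.77 in inhibitory neurons (edgeR adjusted p = 0.141). Its call was also lost without TESS 3 or CON 2 in both classes, without CON 1 in excitatory neurons and without CON 3 in inhibitory neurons, with edgeR adjusted p between 0.0528 and 0.168. Tiparp had a log2 fold change of 1.09 ± 0.29 in excitatory neurons (edgeR adjusted p = 0.0585) and of 0.92 ± 0.26 in inhibitory neurons (edgeR adjusted p = 0.108). Within the shared batch Tiparp was at 0.21 in excitatory neurons. Homer1 had 88.2, 168 and 84.75 CPM in excitatory neurons of TESS 1, TESS 2 and TESS 3, against 80.4, 67.25 and 77.1 CPM in CON 1, CON 2 and CON 3. TESS 2 stood apart from the other 5 samples. Its log2 fold change was 0.62 in excitatory neurons (edgeR adjusted p = 0.144) and 0.70 in inhibitory neurons (edgeR adjusted p = 0.149).

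For 0 of the 10 genes was the change shown to differ between the classes. In an edgeR test of the interaction, with the sample as a block, 0.0556% of 10795 genes were called. The log2 difference of the change, excitatory minus inhibitory, was -0.05 for Ell2 with an interval of -0.55 to 0.45, and 0.12 for Tiparp with an interval of -0.47 to 0.72. The largest of the 10 was 1.72 for Nptx2 (edgeR unadjusted p = 0.00627, adjusted p = 0.627). Nptx2 averaged 54.45 ± 17.4 CPM in TESS excitatory neurons and 42.1 ± 5.33 CPM in CON excitatory neurons (SD, n = 3 each), while in inhibitory neurons it had 6 UMIs in TESS samples and 26 UMIs in CON samples. Bdnf had the next largest, -0.82 (edgeR unadjusted p = 0.0442, adjusted p = 0.830). It had 34 UMIs in inhibitory neurons of TESS samples and 32 UMIs in those of CON samples.

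**Figure D2:**
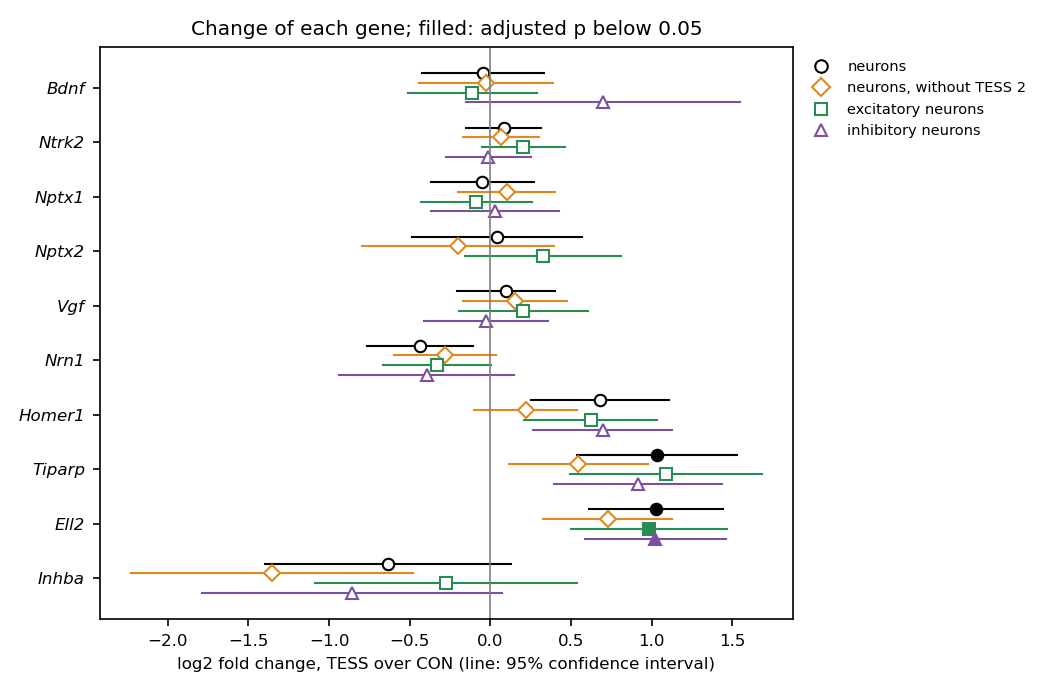
Log2 fold change of TESS over CON for each gene with its 95% confidence interval (x axis), in neurons, in neurons without TESS 2, in excitatory neurons and in inhibitory neurons, filled where the edgeR adjusted p was below 0.05. Tiparp and Ell2 are filled in neurons at 1.03, Ell2 is also filled in both transmitter classes, and 0 symbols are filled without TESS 2.

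The neurons were next divided by whether the first wave of activity genes was seen in them. A neuron counted as an early-gene nucleus when it held at least 1 UMI of any of the 8 early genes. There were 94, 178 and 58 such nuclei in TESS 1, TESS 2 and TESS 3, against 71, 91 and 68 in CON 1, CON 2 and CON 3. Each was matched to 1 neuron without such a UMI from the same sample and subtype, with the nearest total UMI count. In TESS samples the median total was 1638 to 2422 UMIs in early-gene nuclei and 1662 to 2428 UMIs in matched nuclei. In CON samples it was 1834 to 2421 UMIs in early-gene nuclei and 1776 to 2387 UMIs in matched nuclei.

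Vgf, Homer1 and Ell2 were higher in the early-gene nuclei. Vgf had 206, 156 and 250.4 CPM in early-gene nuclei of TESS 1, TESS 2 and TESS 3, against 54.4, 37.8 and 101 CPM in their matched nuclei. In the CON samples it had 197, 182 and 205 CPM in early-gene nuclei of CON 1, CON 2 and CON 3, against 74.2, 109 and 168 CPM in their matched nuclei. Vgf was thus higher in early-gene nuclei in 6 of 6 samples. Its log2 difference was 1.26 ± 0.18 (SE, sample as a block, edgeR adjusted p = 2.18e-07), and it was called whichever sample was left out, at 1.1 to 1.46.

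Homer1 averaged 148 ± 99.8 CPM in early-gene nuclei and 83.2 ± 26.9 CPM in matched nuclei (SD, 6 samples) and was higher in 5 of 6 samples. Its log2 difference was 0.90 ± 0.18 (edgeR adjusted p = 0.00145). Ell2 averaged 95.8 ± 63.4 CPM in early-gene nuclei and 54.0 ± 22.7 CPM in matched nuclei (SD, 6 samples). It was higher in all 3 TESS samples and in 1 CON sample, CON 2, with a log2 difference of 0.95 ± 0.22 (edgeR adjusted p = 0.0122). These 3 calls among the 6 genes of the 10 that could be tested stand beside 19 called of 4264 genes, or 0.446%. Here too the genes were chosen with earlier results known. Without TESS 2 the log2 difference was 0.58 for Homer1 (edgeR adjusted p = 0.633) and 0.69 for Ell2 (edgeR adjusted p = 0.651). The call of Ell2 was also lost without TESS 1 (edgeR adjusted p = 0.118) and without CON 2 (edgeR adjusted p = 0.0706).

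Ntrk2, Nptx1 and Nrn1 were tested and not called, with log2 differences of 0.11 for Ntrk2, 0.36 for Nptx1 and 0.17 for Nrn1. Bdnf, Tiparp, Nptx2 and Inhba were too sparse for this test. Tiparp had 119 UMIs in early-gene nuclei and 46 UMIs in matched nuclei, and Inhba had 29 UMIs in early-gene nuclei and 6 UMIs in matched nuclei. Bdnf had 53.4, 62.9 and 44.7 CPM in early-gene nuclei of TESS 1, TESS 2 and TESS 3, against 19.4, 29.1 and 9.18 CPM in their matched nuclei. In the CON samples it had 51.9, 41.4 and 34.1 CPM in early-gene nuclei of CON 1, CON 2 and CON 3, against 58.3, 54.4 and 13.98 CPM in their matched nuclei. Bdnf was thus higher in early-gene nuclei of all 3 TESS samples and of CON 3, on 68 UMIs in early-gene nuclei and 42 UMIs in matched nuclei. The summed neuron markers ranged from 8431 to 9178 CPM in early-gene nuclei and 8280 to 10030 CPM in matched nuclei of the TESS samples, and from 7980 to 10900 CPM in early-gene nuclei and 7732 to 10660 CPM in matched nuclei of the CON samples.

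**Figure D3:**
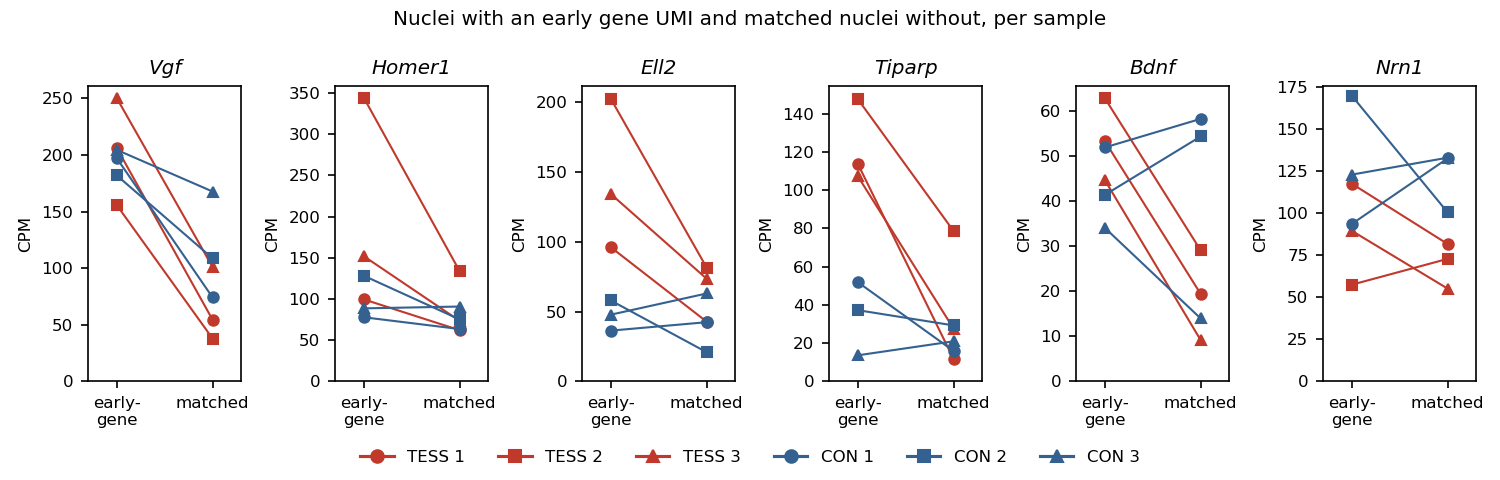
Level in CPM (y axis) of 6 genes in nuclei with an early-gene UMI (left of each pair) and in matched nuclei without (right), with a line per sample, TESS in red and CON in blue. The Vgf lines all run lower on the right, and Tiparp and Ell2 are higher in the early-gene nuclei of every TESS sample than in those of every CON sample.

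Among the early-gene nuclei alone, TESS and CON samples were compared in a test added after the data were seen. Tiparp and Ell2 were called higher in TESS. Both passed the filter on low counts only through the TESS samples, where they were higher, so their calls are no independent support. Tiparp had 114, 148 and 107 CPM in TESS 1, TESS 2 and TESS 3, against 51.9, 37.2 and 13.6 CPM in CON 1, CON 2 and CON 3, on 32, 54 and 12 UMIs in the TESS samples and 10, 9 and 2 UMIs in the CON samples. The lowest TESS sample was above the highest CON sample. The log2 fold change was 1.76 ± 0.37 (SE, n = 3 per group, edgeR adjusted p = 0.0106), and without TESS 2 it was 1.55 (edgeR adjusted p = 0.0791).

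Ell2 had 96.0, 202 and 134 CPM in TESS 1, TESS 2 and TESS 3, against 36.3, 57.9 and 47.7 CPM in CON 1, CON 2 and CON 3, on 27, 74 and 15 UMIs in the TESS samples and 7, 14 and 7 UMIs in the CON samples. The groups did not overlap, and TESS 2 was the highest. Ell2 had a log2 fold change of 1.58 ± 0.34 (SE, n = 3 per group, edgeR adjusted p = 0.0128). Without TESS 2 it was 1.11 (edgeR adjusted p = 0.246), and without CON 1 it was 1.40 (edgeR adjusted p = 0.0970). Of all 4484 genes tested in early-gene nuclei 0.781% were called, and 9.37% had TESS samples above all CON samples.

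Homer1 had 99.6, 344 and 152 CPM in TESS 1, TESS 2 and TESS 3, against 77.9, 128 and 88.7 CPM in CON 1, CON 2 and CON 3, and its groups overlapped (log2 fold change 1.03, edgeR adjusted p = 0.107). It was called without TESS 1 (1.41, edgeR adjusted p = 0.0275) and without CON 2 (1.33, edgeR adjusted p = 0.0329), and stood at 0.15 without TESS 2. Vgf had 204 ± 47.3 CPM in TESS early-gene nuclei and 195 ± 11.5 CPM in CON early-gene nuclei (SD, n = 3 each), with an interval of -0.51 to 0.44 for its log2 fold change. Subtypes were not balanced between the groups in this comparison. The 5 pericyte and fibroblast markers summed to 5.47 to 26.8 CPM in TESS early-gene nuclei and were at 0 in those of every CON sample, and their part in the result was not tested.

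In neurons without any early-gene UMI, also an added comparison, 0 of the 10 genes were called. Ell2 had 53.8, 70.25 and 58.45 CPM in such neurons of TESS 1, TESS 2 and TESS 3, against 39.2, 25.4 and 44.2 CPM in CON 1, CON 2 and CON 3. The log2 fold change of TESS over CON there was 0.73 for Ell2 (edgeR adjusted p = 0.0731), 0.61 for Tiparp (edgeR adjusted p = 0.305) and 0.44 for Homer1 (edgeR adjusted p = 0.234). A larger change in early-gene nuclei than in matched nuclei was not shown. The log2 difference of the changes was 0.86 ± 0.63 for Tiparp (edgeR adjusted p = 0.960), 0.88 ± 0.50 for Ell2 (edgeR adjusted p = 0.936) and 1.02 ± 0.36 for Vgf (edgeR adjusted p = 0.853). That test called 0 of 5270 genes, with 288 at an unadjusted p under 0.05, and was run with edgeR alone.

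Across neuron subtypes the 10 genes had distinct patterns, described here over the 24 subtypes with at least 10 nuclei in every sample. Subtypes left out by this rule are not in the rankings below, and some of them had higher means. Nptx2 was at 288 CPM in Grp (33 UMIs) and 252 CPM in Cck/Cpne4 (35 UMIs). Nrn1 was at 383 CPM in Rora/Parp8 (83 UMIs) and 339 CPM in Rora/Adarb2 (68 UMIs). Vgf was at 484.5 CPM in Nrgn/Rora-I (54 UMIs) and Ell2 at 164 CPM in MN (42 UMIs). The authors' subtypes were built from these nuclei, so levels between subtypes have no test. Of the 24, 12 were excitatory and 12 inhibitory. The subtype Fxyd6 held transmitter genes of both kinds, with 238.5 CPM of excitatory and 335 CPM of inhibitory ones. Bdnf was highest in the excitatory subtypes Tac1, at 185 ± 86.0 CPM (SD, 6 samples), Trh, at 183 ± 123 CPM, and Grpr, at 107 ± 82.7 CPM. These 3 held 38.6% of the Bdnf UMIs of the 24 subtypes in 13% of their nuclei. The median subtype level of Bdnf was 67.4 CPM among excitatory and 2.935 CPM among inhibitory subtypes, and it had 0 UMIs in Cdh3, Npy, Rorb-I, Rorb and V1/V2b/Nxph1, all inhibitory.

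Ntrk2 was spread over all these subtypes, from 236 to 651 CPM, and was highest in Bnc2 (651 ± 214 CPM) and Crh (647 ± 217 CPM). Nptx2 was highest in Tac1 (112 ± 56.2 CPM) and Bnc2 (103 ± 58.6 CPM) and had 0 UMIs in 7 subtypes, 6 of them inhibitory. Nptx1 was highest in the inhibitory subtype Rorb (310.2 ± 122 CPM), followed by Grpr (254 ± 75.3 CPM) and Tac1 (240.5 ± 96.5 CPM), with SD over 6 samples in each case. For these genes 0 neighbours in the order differed by more than the larger SD.

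All 8 of the highest subtypes of Nrn1 were excitatory, and 7 of the 8 highest of Bdnf and of Nptx2. The levels of Nrn1 were 314 ± 148 CPM in Nts, 245 ± 138 CPM in Maf/Clbn2 and 201 ± 40.2 CPM in V2a/Etl4 (SD, 6 samples). The step from V2a/Etl4 to the next, Tac2/Nmu at 105 ± 53.6 CPM, was the only one between neighbours, over all 10 genes, that was larger than the larger SD. Vgf was highest in Crh (271 ± 168 CPM), Fxyd6 (241 ± 118 CPM) and Lxh1/Nxph1 (218 ± 89.2 CPM), and 6 of its 8 highest subtypes were inhibitory. Vgf had 0 UMIs in the 133 nuclei of Trh, 1 of the subtypes richest in Bdnf.

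Homer1 and Tiparp, like Ntrk2, differed less between subtypes, with highest levels 1.92, 1.98 and 1.85 times the median subtype in that order. Homer1 was highest in Rorb (162 ± 116 CPM) and Tiparp in Maf/Clbn2 (68.9 ± 66.0 CPM) and V1/V2b/Stmn3 (68.55 ± 49.55 CPM). The Homer1 level in Rorb rested on 28 UMIs, with 231 CPM on average in TESS and 92.6 CPM in CON samples. Pooled over all samples Homer1 was at 134.9 CPM in Rorb and 134.3 CPM in Grpr. The Tiparp levels rested on 16 UMIs in Maf/Clbn2 and 34 UMIs in V1/V2b/Stmn3. With the UMIs of all samples pooled they were 44.8 CPM in Maf/Clbn2 and 60.6 CPM in V1/V2b/Stmn3. In Maf/Clbn2 Tiparp averaged 117.5 CPM in TESS and 20.3 CPM in CON samples. Ell2 was highest in V2a/Etl4 (112 ± 44.9 CPM), Maf/Clbn2 (99.5 ± 107 CPM) and Rorb-I (95.1 ± 49.0 CPM). Inhba was highest in Fxyd6, at 55.8 ± 75.3 CPM, where single samples ranged from 10.7 to 206 CPM. It averaged 12.2 CPM in TESS samples there, on 4 UMIs, and 99.4 CPM in CON samples, on 33 UMIs, with CON 3 the highest.

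**Figure D4:**
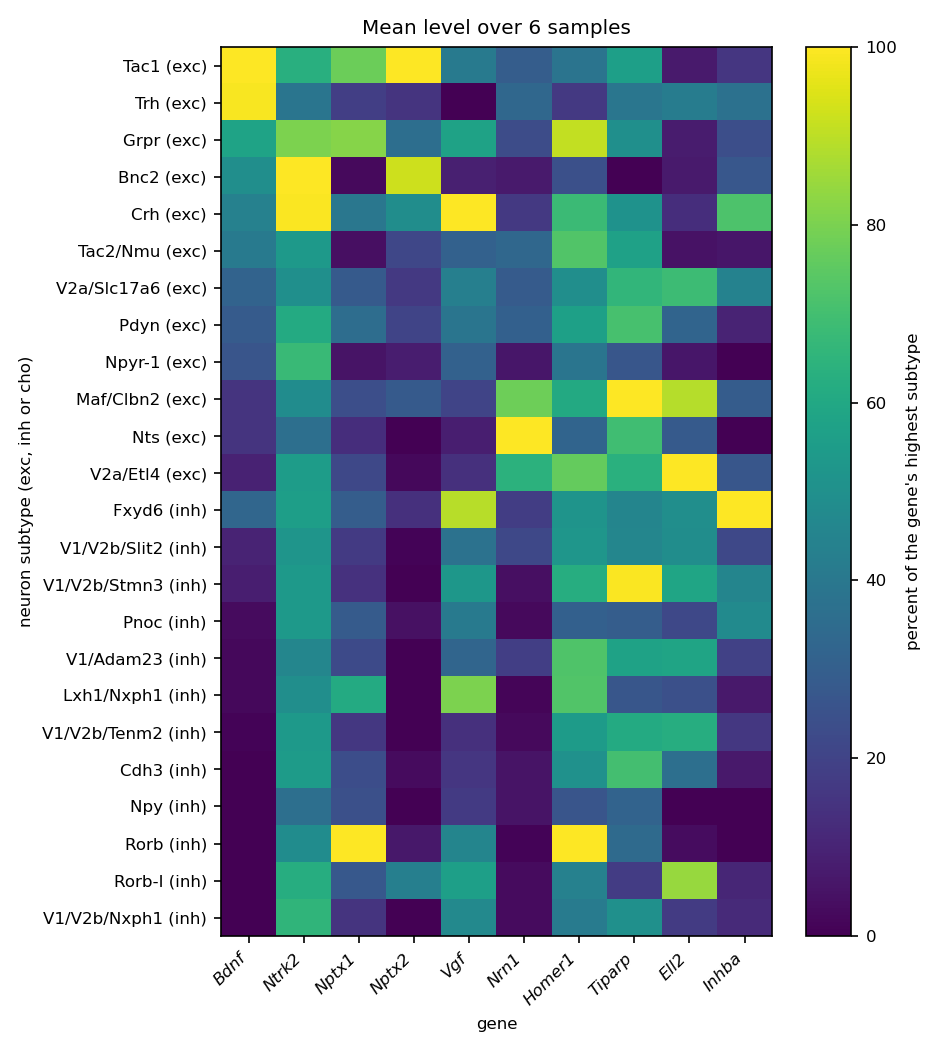
Mean level of each gene (x axis) in each of 24 neuron subtypes (y axis, with the transmitter class), as a percent of that gene's highest subtype, averaged over 6 samples. Bdnf and Nrn1 are highest in different excitatory subtypes and low in most inhibitory ones, while Ntrk2 and Homer1 are spread over both.

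The change was also tested subtype by subtype, with adjustment within each subtype and none across subtypes. The 10 genes gave 45 tests in 24 subtypes and 0 calls with edgeR, beside 26 calls in 31412 gene tests, or 0.0828%. The largest shares of all genes called were 0.499% in Grpr and 0.48% in Pnoc, all of them lower. In Lxh1/Nxph1 0.131% of all genes were called, all higher, and in Maf/Clbn2 0.381%, with 0.127% higher. Without the count filter Inhba was called in Fxyd6 (log2 fold change -2.85, edgeR adjusted p = 0.0362). With batch as a term Vgf was called in Crh (2.61, edgeR adjusted p = 0.0147) and V1/V2b/Stmn3 (2.27, edgeR adjusted p = 0.0297), a contrast of TESS 1 alone with CON 1 and CON 2. CON 3, which does not enter that contrast, was near TESS 1, with 477 CPM in TESS 1 and 389 CPM in CON 3 for Crh and 219.5 CPM in TESS 1 and 206 CPM in CON 3 for V1/V2b/Stmn3.

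Neurons held most of the UMIs of 9 of the 10 genes, with 94.3% for Bdnf at the top and 81.0% for Homer1 and 68.7% for Tiparp at the low end, and 45.5% of those of Ell2. They also held most UMIs of all genes together in every sample, such as 1805760 of 2891177 in TESS 1 and 2590387 of 4003227 in CON 1. With all samples pooled, Tiparp was at 36.75 CPM in neurons and 30.3 CPM in all other nuclei. Homer1 was at 89.5 CPM in neurons and 38.2 CPM in all other nuclei, and Ell2 at 51.7 and 112 CPM in the same order. Relative to neurons in the same sample, the level of Ell2 was 247 ± 86.5% in oligodendrocytes and 429.5 ± 149% in microglia (SD, 6 samples). Tiparp was at 295 ± 176% of the neuron level in astrocytes, and Inhba at 137 ± 98.7% in oligodendrocyte precursors on 8 UMIs. Single samples ran from 142% to 361% for Ell2 in oligodendrocytes and from 135% to 518% for Tiparp in astrocytes. In both cases every TESS sample was below every CON sample. The neuron level, by which these values are divided, was higher in TESS samples for both genes, and its part in the spread was not tested. Ntrk2 was at 85.7 ± 14.2% in astrocytes and 63.8 ± 13.35% in oligodendrocyte precursors, but at 6.70 ± 3.07% in oligodendrocytes. The 5 neuron markers together stood at 11.5% to 19.6% of their neuron level in the 5 other major types, and among single markers in oligodendrocytes Syt1 was at 6.59%, Snap25 at 54.8% and Nefl at 164%. Bdnf, at 10.9% in oligodendrocytes, and Vgf, at 11.3%, were below the summed markers there (15.6%). Both were above Rbfox3 (7.85%), Snhg11 (7.90%) and Syt1, and whether these counts are background was not tested.

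With edgeR 0 of the 10 genes were called in any non-neuronal type. Of the 10, 7 were tested in oligodendrocytes, 2 in astrocytes, 1 in microglia, 1 in oligodendrocyte precursors and 0 in endothelial cells. The shares of all genes called were 1.65% in oligodendrocytes, 0.976% in astrocytes, 0.6% in microglia, 0.155% in oligodendrocyte precursors and 1.54% in endothelial cells. Ell2 averaged 132 ± 32.7 CPM in TESS oligodendrocytes and 115.5 ± 11.2 CPM in CON oligodendrocytes (SD, n = 3 each), a log2 fold change of 0.17 with an interval of -0.23 to 0.57. In microglia it averaged 249.4 ± 55.1 CPM in TESS samples and 189.9 ± 50.04 CPM in CON samples (SD, n = 3 each), with an interval of -0.30 to 0.91. Tiparp averaged 78.9 ± 28.3 CPM in TESS astrocytes and 114 ± 22.4 CPM in CON astrocytes (SD, n = 3 each), a log2 fold change of -0.53 with an interval of -1.32 to 0.25. In astrocytes the astrocyte markers summed to 10540 to 11270 CPM in TESS and 7653 to 8861 CPM in CON samples, and the microglia markers to 94.4 to 146 and 174 to 272 CPM. In microglia the precursor markers summed to 175 to 296 CPM in TESS and 85.6 to 150 CPM in CON samples, and the astrocyte markers to 377 to 440 and 315 to 342 CPM. These sums did not overlap between the groups, and their part in the results was not tested.

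The difference between neurons and all other nuclei was tested directly. The change in neurons minus the change in all other nuclei was 1.16 ± 0.29 log2 units for Tiparp (edgeR adjusted p = 0.116) and 0.73 ± 0.20 for Ell2 (edgeR adjusted p = 0.201), and 0 of the 10 were called, beside 0.0875% of all genes. Without TESS 1 Ell2 was called in this test (0.98, edgeR adjusted p = 0.0322). In all nuclei of a sample summed, 0 of the 10 were called by edgeR as well, beside 0.754% of all genes. Ell2 was at 0.60 ± 0.16 there (edgeR adjusted p = 0.0969), Tiparp at 0.67 ± 0.25 (edgeR adjusted p = 0.216) and Homer1 at 0.62 ± 0.20 (edgeR adjusted p = 0.162). In such sums fewer cells of a type and less RNA per cell cannot be told apart.

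**Figure D5:**
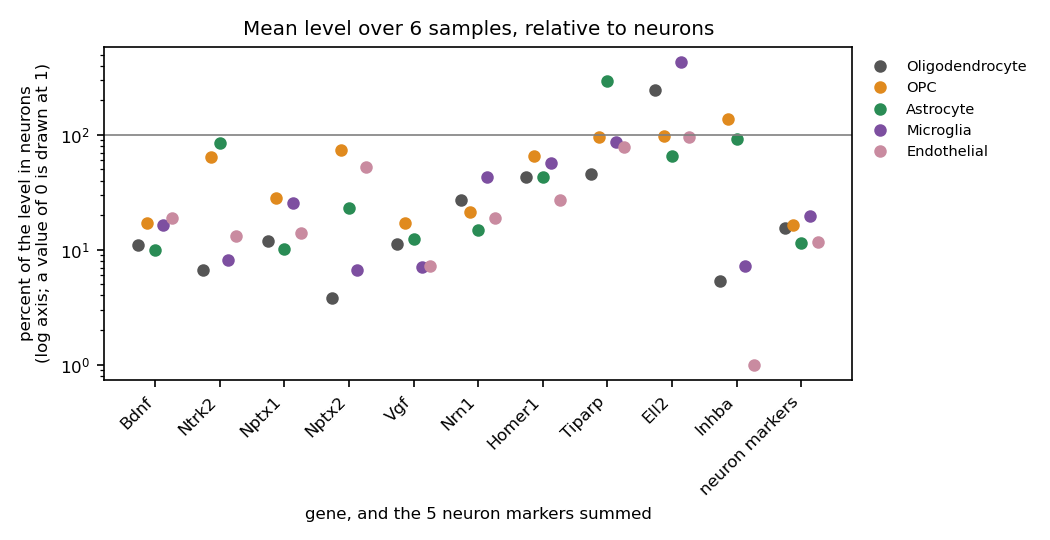
Level of each gene, and of 5 neuron markers summed, in each non-neuronal type as a percent of the level in neurons (log y axis, mean over 6 samples, a value of 0 drawn at 1, the line at 100 marking the neuron level). Ell2 in oligodendrocytes and microglia and Tiparp in astrocytes lie well above the line, Inhba in oligodendrocyte precursors lies above it on few UMIs, and Ntrk2 in astrocytes lies just under it.

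The genes most alike in pattern were sought over the 26 subtypes with at least 100 nuclei, by Pearson's r of log2(CPM + 10) among 9809 genes. These values describe subtypes that share libraries and depth and have no p. Slc17a6, which encodes a vesicular glutamate transporter, was the gene most like Nrn1 (r = 0.85) and the third for Bdnf (r = 0.786, after Asic2 at 0.803 and Cacna2d1 at 0.787). Bdnf and Nrn1 had an r of 0.611 with each other, the highest between any of the 10. Ell2 was most like Cux2 (0.845), Luzp1 (0.83) and Bcat1 (0.81), and Vgf most like Slc22a17 (0.776), Ube2z (0.771) and Tmem130 (0.749). After Slc17a6, the genes most like Nrn1 were Ptprd (0.821) and Tmem163 (0.803). The 3 nearest genes were Bmper (0.741), Mttp (0.739) and Gpr149 (0.713) for Ntrk2, Gnas (0.777), Nrxn2 (0.733) and Rnaset2a (0.727) for Nptx1 and Pxn (0.732), Ppp3ca (0.712) and Capza2 (0.683) for Nptx2. They were Ube2z (0.761), Necap1 (0.729) and Stk10 (0.717) for Homer1, Cttn (0.68), 4732491K20Rik (0.675) and Ndufaf6 (0.668) for Tiparp and Klhdc10 (0.788), Pdlim7 (0.752) and Srpk1 (0.66) for Inhba.

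Other genes of the same pathways were counted from lists. The lists were chosen with earlier results of these data known, so their medians and counts are no independent support. Of 24 other delayed activity-response genes 16 were tested in neurons, of which 1 rose and 0 fell, and the median log2 fold change was 0.44, against -0.01 over all genes tested. The one that rose was Pcsk1, which encodes a convertase that cuts prohormones, with 52.1, 68.6 and 63.0 CPM in TESS 1, TESS 2 and TESS 3, against 32.04, 28.4 and 33.7 CPM in CON 1, CON 2 and CON 3. The groups did not overlap. Pcsk1 had a log2 fold change of 0.94 ± 0.17 (SE, n = 3 per group, edgeR adjusted p = 0.0150), and without TESS 2 it was still called (0.81, edgeR adjusted p = 0.0413). Pcsk1 was also called in excitatory (0.88, edgeR adjusted p = 0.0207) and inhibitory neurons (1.19, edgeR adjusted p = 0.0496), in each case not without TESS 2 (edgeR adjusted p = 0.0785 in excitatory and 0.152 in inhibitory neurons).

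Pcsk1 was higher in early-gene nuclei than in matched nuclei as well, by 1.58 ± 0.26 log2 units (edgeR adjusted p = 1.64e-05). Scg2, which encodes the granule protein secretogranin II, at 0.45 (edgeR adjusted p = 0.00854), and Ifrd1, at 0.93 (edgeR adjusted p = 0.0414), were the other list genes called there. Both calls were lost without TESS 2, with edgeR adjusted p = 0.237 for Scg2 and 0.465 for Ifrd1. In oligodendrocytes Errfi1, which encodes an inhibitor of the EGF receptor, rose by 1.19 ± 0.20 log2 units (edgeR adjusted p = 0.00229), where 1.07% of all genes were called in the higher direction. In the same nuclei the 5 oligodendrocyte precursor markers summed to 86.6 to 141 CPM in TESS samples and 55.01 to 80.9 CPM in CON samples. The 5 blood markers there summed to 240.1 to 381 CPM in TESS samples and 117 to 201 CPM in CON samples. Neither list overlapped between the groups, and their part in the oligodendrocyte changes was not tested. In all nuclei summed, Pcsk1 (0.94, edgeR adjusted p = 0.0324) and Errfi1 (0.88, edgeR adjusted p = 0.0163) were called too, and the call of Pcsk1 there was lost without TESS 2 (0.76, edgeR adjusted p = 0.0776).

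Of the neurotrophin pathway list 11 of 16 genes were tested in neurons and 0 were called, with a median log2 fold change of 0.12. The receptor gene Ntrk3 stood at 0.26 (edgeR adjusted p = 0.284), while the ligand gene Ntf3 was too sparse to test. Of the pentraxin and AMPA receptor scaffold list 11 of 13 were tested and 0 called (median 0.07), with the pentraxin receptor gene Nptxr at 0.19 (edgeR adjusted p = 0.701). In oligodendrocytes the same list had 2 called of 8 tested, the glutamate receptor genes Gria3 (1.29, edgeR adjusted p = 0.0174) and Grm5 (1.06, edgeR adjusted p = 0.0148), both higher in TESS, in the nuclei whose precursor and blood markers were also higher in TESS. In neurons the activin list had 0 called of 7 tested (median -0.10), the aryl hydrocarbon receptor and elongation list 0 of 14 (median 0.07) and the activity-regulator list 0 of 9 (median 0.19).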

How the data were processed

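The values are whole-number UMI counts per gene and nucleus, deposited by the authors as 1 table with their annotation of cell types, subtypes and batches. Cell Ranger 2.2.0, Seurat 3 and the build mm10 (GRCm38) are named in the submitters' processing notes, and nuclei were made into 10x v2 libraries, per the labels. Not given in the sources used here are filters on nuclei, treatment of doublets and strand of counting, and no doublet caller was run. Counts were summed per sample and class of nuclei, and 0 sample columns were left unused. Sums were tested with edgeR 4.0.16 in R 4.3.3 (TMM, filterByExpr with a minimum count of 10, quasi-likelihood F test), with Benjamini-Hochberg adjustment over all genes of the class and a threshold of 0.05. Interactions and early-gene against matched nuclei had the sample as a block. SE is the log2 fold change divided by the root of F. Levels are CPM over all UMIs of the class. The scripts were tested on simulated data. Alternatives were DESeq2 1.42.0, library totals, no filter, batch, a replicate block, equal nuclei per subtype and leaving out each sample. Samples with the same replicate number did not deviate together, so the numbers were not taken as pairs. The 10 genes were taken by symbol. Genes of the lists are named where called, with Ntf3, Ntrk3 and Nptxr, and the 3 genes most alike in pattern are named for each of the 10. One item of the naming rule is not reported here. The members and lists were chosen with earlier results of these data known.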

Additional observations from a re-analysis of the deposited data

How the results depend on the processing

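Depth is a limit: Bdnf, Nptx2 and Inhba had 414, 273 and 174 UMIs in neurons, and most genes were too sparse to test in single subtypes or glial types. TESS and CON share 1 batch, with 1 TESS sample, and each other sample is alone in its batch. Batch as a term and the values within the shared batch are therefore 1 contrast, of TESS 1 with CON 1 and CON 2. Among log2 fold changes of the 10 genes in neurons and in all nuclei under the alternatives, 213 kept their direction and side of the threshold, 27 changed sign, 13 lost a call and 3 gained one. Only Tiparp and Ell2 in neurons had a call to lose, so all 13 lost calls concern these 2 results. Genes that were not called and stayed so are counted among the 213. Batch as a term and the shared batch are counted separately here, although they are 1 contrast. The cause of the changes was not tested.

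In neurons 2 of the 10 genes were called. The count was 1 with DESeq2 (Ell2, with no adjusted p given for Tiparp), 3 with no filter on low counts (Homer1 added), 0 with batch as a term, 0 within the shared batch and 0 without early-gene nuclei, and 0 to 3 with single samples left out. In excitatory neurons 1 was called, and the count was 0 with DESeq2, 2 with no filter on low counts, 2 with the replicate block, 0 with batch as a term, 0 within the shared batch, 2 with Fxyd6 and V1/V2b/Slit2 counted as excitatory, an alternative chosen after seeing the data, and 0 to 2 with single samples left out. In inhibitory neurons 1 was called, and the count was 3 with no filter, 2 with the replicate block, 0 with batch as a term, 0 within the shared batch and 0 to 1 with single samples left out. The block added Tiparp in both classes, at edgeR adjusted p = 0.0365 in excitatory and 0.0499 in inhibitory neurons, and in neurons it called 2 genes. The correlations of same-numbered samples were -0.05, -0.0016 and -0.02.

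In single subtypes 0 were called, against 1 with no filter and 2 with batch as a term, the contrast with 1 TESS sample. The difference between neurons and other nuclei had 0 to 1 calls with single samples left out. Early-gene against matched nuclei had 3 calls, 5 against all neurons without an early-gene UMI (Vgf, Nrn1, Homer1, Tiparp and Ell2) and 1 to 4 with single samples left out. All neurons without such a UMI were matched neither in depth nor in subtype. Their median total was 1191 to 2078 UMIs in TESS and 1497 to 2081 UMIs in CON samples, lower than in the early-gene nuclei of the same sample each time. The share of all genes called there is not given, so the 5 calls add no support. Early-gene nuclei of TESS against CON had 2 calls, and 0 to 3 with single samples left out.

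Sign changes concerned log2 fold changes that were not called and stood near 0 before the alternatives were applied. Nptx2 moved further from 0, to -0.60 within the shared batch in neurons. In all nuclei Bdnf was at 0.0013 with library totals, Ntrk2 at -0.026 with batch as a term and -0.030 within the shared batch, Nptx1 at 0.0021 with DESeq2, 0.030 with library totals, 0.15 with batch as a term and 0.15 within the shared batch, and Nptx2 at -0.59 with batch as a term and -0.59 within the shared batch. In neurons Bdnf was at 0.11 with equal nuclei per subtype, Nptx1 at 0.18 with batch as a term and 0.18 within the shared batch, Nptx2 at -0.60 and -0.60 in the same order, and Vgf at -0.022 in neurons without an early-gene UMI. With single samples left out the ranges were -0.12 to 0.050 for Bdnf, -0.10 to 0.12 for Nptx1 and -0.22 to 0.39 for Nptx2 in all nuclei, and -0.11 to 0.041 for Bdnf, -0.19 to 0.10 for Nptx1 and -0.20 to 0.37 for Nptx2 in neurons.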
